A study of Mus musculus with 12 samples.

Results

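Spermatids (ST), the haploid products of male meiosis, were compared with prepachytene spermatocytes (LP), the cells that enter meiotic prophase, so that the comparison covered the net change across the whole of meiosis. The 8 arrays of these populations were chosen by their labelled cell type from the 12 arrays of the series, 4 arrays a side, and strain was a covariate in the fit. In prepachytene spermatocytes chromosomes break, pair and begin to synapse. Round spermatids build the acrosome, a vesicle of hydrolases over the nucleus, and the flagellum, and later replace histones with protamines. Many spermatid mRNAs are made days before their proteins, and the X chromosome is transcriptionally silenced in the pachytene cells that lie between the compared populations.

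The cells came from testes of PWD/Ph males (PWD), whose inbred line goes back to wild-caught mice of *M. m. musculus*, and from C57BL/6J males (B6), a classical laboratory line in which *M. m. domesticus* ancestry prevails, and neither strain carried a transgene or received a treatment. Populations were isolated by fluorescence-activated sorting from mice aged 8 to 10 weeks by the labels. By the study's methods the prepachytene gate held leptotene, zygotene and early pachytene cells, and the pachytene gate (RP) held mid-late pachytene and diplotene cells. The 6 combinations of strain and population were hybridised to 2 arrays each, amplified from 15 to 40 ng of total RNA. The labels do not say that the arrays of a group came from separate mice, so that p-values measure the spread between these sorted samples, which may be technical. The 4 pachytene arrays did not enter the fit, and their levels are given only to show the level between the compared populations.

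Values are deposited log2 expression levels of probesets, and a difference is the mean of spermatids minus the mean of prepachytene spermatocytes on that scale, given with its standard error (SE). Of 45037 probesets tested with limma, 34945 named exactly 1 gene, and for each of 18193 genes the probeset brightest on average on the compared 8 arrays was taken, other probesets being named as such. A background level of 4.52 was set at the 95th percentile of 64 probesets whose 35 genes belong to other organs, and 10119 genes had a mean over the 8 arrays above it. Below that level a value does not measure expression, so that for a gene whose lower side had its mean there a lower bound of the size of the difference is also given, in the form "at least", with the lower side's arrays raised to the background level. Replicate arrays of a group correlated over all probesets with Pearson's r between 0.987 and 0.996, the lowest in PWD prepachytene cells.

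The labelled populations were set beside marker genes, as log2 of the summed linear values of each list. The markers were chosen with earlier results of these data known, so that their sums describe the samples and are no separate support for the labels. The 13 prepachytene markers summed to 17.42 to 17.66 on the 4 prepachytene arrays and to 13.17 to 14.15 on the 4 spermatid arrays. The 24 spermatid markers summed to 18.11 to 18.86 on the spermatid arrays, but they also reached 16.45 and 16.48 on the B6 prepachytene arrays and 17.15 and 17.45 on the PWD prepachytene arrays. On the pachytene arrays the same markers summed to 15.92 to 16.59, below every PWD prepachytene array. This sum, which its brightest members dominate, was thus not at its lowest in the prepachytene samples. Of the 24 markers 14 had a pachytene mean below both compared populations. In lists described below, so had 9 of 16 chromatin compaction genes and 8 of 23 tail sheath genes, but 1 of 35 acrosome and 0 of 29 axoneme genes.

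Somatic markers were also present. The 15 Sertoli cell markers summed to 14.64 to 15.51 on the prepachytene arrays, to 8.91 to 9.70 on the pachytene arrays and to 10.21 to 11.55 on the spermatid arrays, and 8 of the 15 were above the background level on all prepachytene arrays. *Ctsl*, a lysosomal protease, had a mean of 13.86 in prepachytene cells and 8.93 in spermatids, and *Clu*, a secreted chaperone, had 13.76 and 9.61, although neither is restricted to Sertoli cells. *Cst9*, a cystatin gene, fell from 8.14 and 7.37 in B6 and 10.61 and 10.15 in PWD prepachytene cells to 4.37 to 6.49 in spermatids (-3.62 ± 0.25, limma adjusted p = 3.1e-05), and *Rhox5*, an X-linked homeobox gene of Sertoli cells, fell by 3.48 (adjusted p = 7.2e-05). The Sertoli cell markers *Amh*, *Fshr* and *Gata4* lay below the background level in both populations. Their prepachytene means were 1.44, 2.02 and 2.41, and *Wt1* was at 4.60. The 13 spermatogonia markers summed to 12.14 to 12.69 in prepachytene, 12.05 to 12.93 in pachytene and 8.18 to 9.00 in spermatid samples, and on the pachytene arrays 1 of them, *Id4*, was above the background level on all arrays, with a mean of 12.29. Leydig cell markers summed to 4.99 to 6.09 and 5.30 to 6.67, with none of 5 above the background level on all arrays of either population. Peritubular and endothelial markers summed to 7.61 to 8.29 and 8.78 to 10.28, and blood and macrophage markers to 6.18 to 6.62 and 7.65 to 8.87. Of the Sertoli markers 9 fell, and *Sox9*, with means of 4.05 and 4.55, passed as higher (at least 0.03). Of the blood markers 7 of 11 passed as higher and of the peritubular and endothelial ones 6 of 12, with medians of 0.06 and 0.16. Of all genes 45.0% rose. In each of these 2 lists only 2 markers exceeded the background level on average, and 2 rose by at least 1. Most of these calls thus concern genes below that level, where a value does not measure expression. After centring, which raised every difference alike, the counts were 11 and 10. The part of other cells in the differences below was not tested, and in sorted bulk samples fewer cells of a type and less RNA per cell cannot be told apart.

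**Figure D1:**
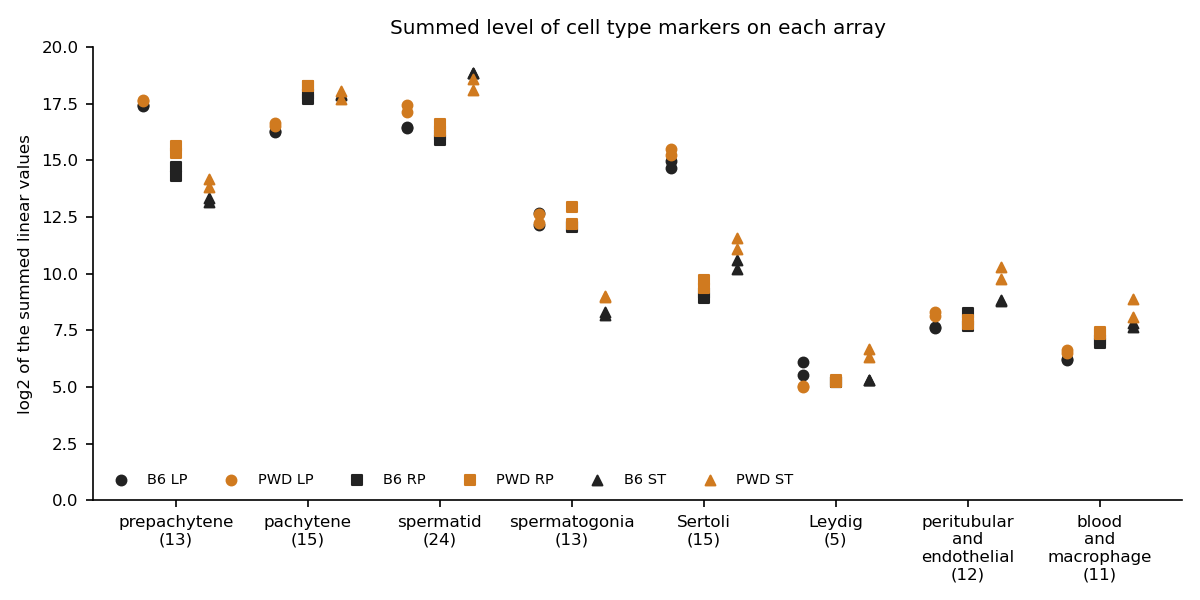
Each point is 1 array, and its height is log2 of the summed linear values of the markers of a cell type, with the number of measured markers in parentheses. Prepachytene markers were highest on the prepachytene arrays (circles), spermatid markers on the spermatid arrays (triangles), and Sertoli cell markers were higher on the prepachytene arrays, at 14.64 to 15.51, than on any other.

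Most genes differed between the ends of meiosis. Of the 10119 genes above the background level, 3790 (37.5%) rose and 4583 (45.3%) fell in spermatids at an adjusted p under 0.05, together 82.7%. Over all 18193 genes, whatever their level, 45.0% rose and 28.3% fell, together 73.3%, and counts in the gene lists below are to be read against these shares. Over all probesets 68.8% passed, and 35.4% passed with a difference of at least 1. The median absolute difference of genes above the background level was 2.22, and for 7645 genes (75.6%) the 4 and 4 arrays did not overlap. At a difference of at least 2 there were 2459 genes higher (24.3%) and 3003 lower (29.7%), at 4 there were 895 and 1277, and at 6 there were 98 and 321. The split depended on the scaling of the arrays: 45.3% of the calls were rises in the deposited values, 53.1% after a further quantile normalization and 55.2% after centring on probesets above the background level, and the median difference moved from -0.32 to 0.17 and 0.31. Centring raised every difference by the same amount, which carried the median from -0.32 to 0.31. Falls smaller than that shift changed direction under it, and the direction of small differences is not settled.

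Some genes were switched over the background level altogether. On all 4 prepachytene arrays below it and on all 4 spermatid arrays above it were 498 genes, of which 497 passed the test. In the opposite sense, 890 genes were above the level on every prepachytene array and below it on every spermatid array, and 889 passed. Both sets were chosen by the values that were tested, so that these passes are no separate support. The largest rise was that of *Slc6a6*, the taurine transporter (chr6:91684048-91759063), at 3.83 and 2.80 on the B6 prepachytene arrays, 2.61 and 5.18 on the PWD ones, 12.64 and 12.46 on the B6 spermatid arrays and 11.97 and 12.56 on the PWD ones. The fitted difference was 8.80 ± 0.58 (SE, limma adjusted p = 2.4e-05, at least 7.72). The X-linked gene *Samt2b*, of a family of testis transmembrane proteins, followed with 2.15 to 4.61 on the prepachytene and 11.06 to 11.65 on the spermatid arrays (8.06 ± 0.39, adjusted p = 6.3e-06, at least 6.73). Next were *Pkib*, an inhibitor of cAMP-dependent protein kinase, at 7.85 (at least 6.87, while another of its probesets gave 2.17), *St8sia3*, a sialyltransferase, at 7.79 (at least 6.21), and *Lrrc10b*, a leucine-rich repeat gene, at 7.71 (at least 5.80). The others of the 15 largest rises were *Slc25a54* and *Slc25a2* of the mitochondrial carrier family, *Stambpl1*, a deubiquitinase, *Adam26a*, *Akap14*, *Spaca6*, *Spn-ps*, *Stpg3*, *Prr27* and *4921504E06Rik*, between 7.06 and 7.66. Of these the lower side was below the background level for *Slc25a54* (at least 6.62), *Stambpl1* (7.01), *Spaca6* (5.84), *Stpg3* (5.28) and *4921504E06Rik* (6.53).

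The largest fall was that of *Scml2*, a Polycomb protein of germ cells on Chr X (chrX:161082525-161258218). Its probeset read 13.87 and 13.82 in B6 and 12.86 and 12.75 in PWD prepachytene cells, and 3.22 to 3.62 on the spermatid arrays. The fitted difference was -9.98 ± 0.27 (adjusted p = 1.2e-06, at least 8.81), while a second *Scml2* probeset gave -5.24. The X-linked *Mtcp1* and *Bex1* fell by 9.52 and 9.51 (at least 7.90 and 8.99), and the autosomal *H2-D1*, a classical class I histocompatibility gene, fell from 13.12 to 14.08 down to 3.83 to 4.36 (-9.45 ± 0.16, adjusted p = 9.8e-07, at least 8.97). *Cmpk1*, a nucleotide kinase (at least 8.29), *Pigq*, of GPI anchor synthesis (at least 8.61), and *Tex101*, a GPI-anchored germ cell protein, were among the 15 largest falls, as were the X-linked *Lamp2*, *Ssr4*, *Mbnl3* and *Mmgt1* (at least 8.34, 7.30, 7.38 and 6.95) and the autosomal *H2-K1*, *Zfand5*, *Nmt2* and *Ptpn12* (at least 8.80, 8.42, 7.14 and 8.20). Other probesets of many of these genes changed less. The weakest above the background level gave -1.61 for *Lamp2*, -1.8 for *Nmt2*, -3.09 for *H2-K1* and -3.71 for *Ptpn12*. They gave -3.975 for *H2-D1*, -4.40 for *Mmgt1*, -5.00 for *Mbnl3* and -5.79 for *Pigq*. For *Zfand5* the 3 other probesets above the background level went both ways, 2 passing as lower, with -2.31 as the lowest value, and 1 as higher, at 2.38.

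**Figure D2:**
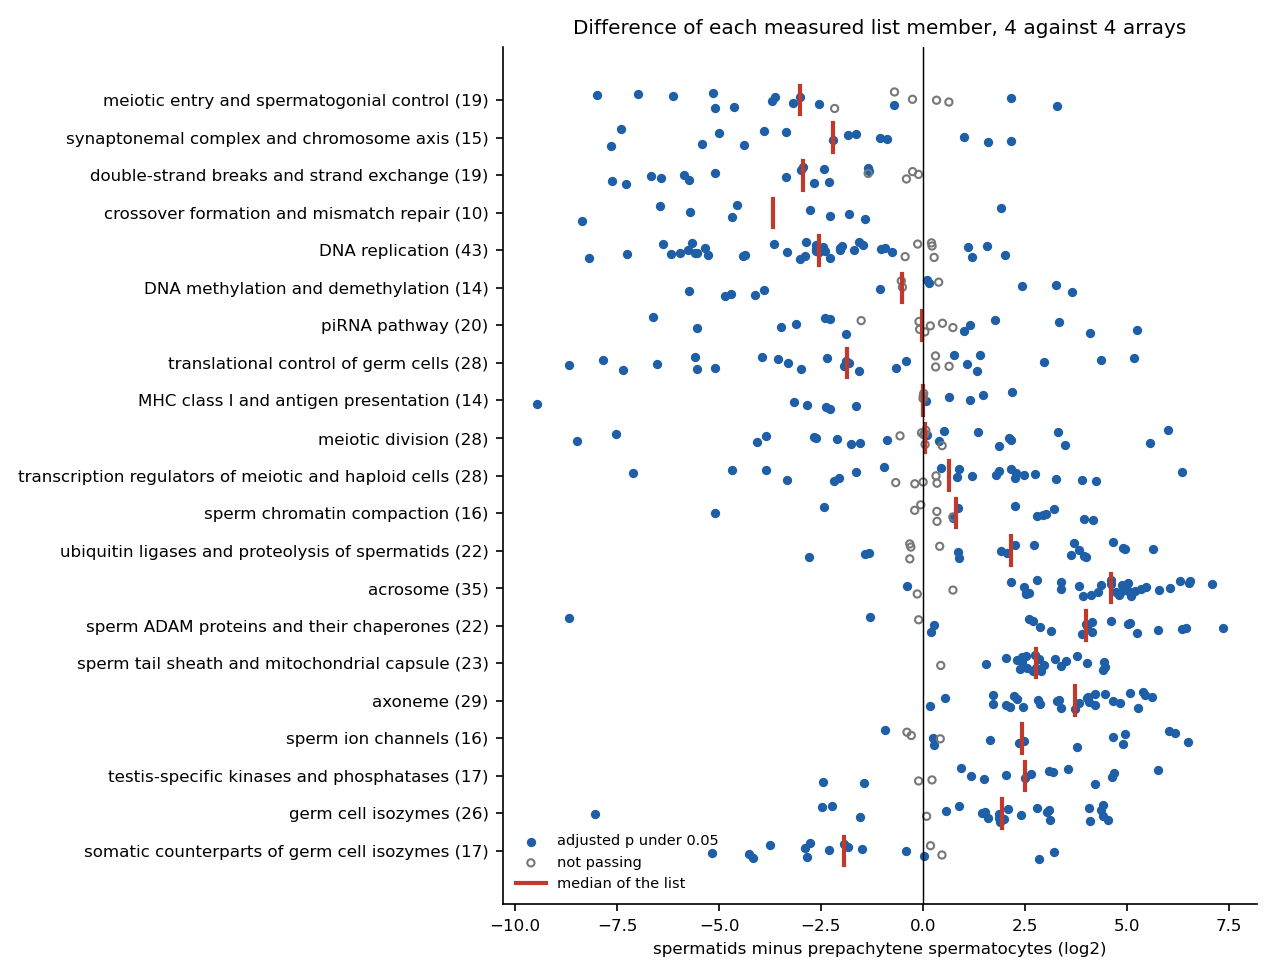
Each point is a measured gene of a list, placed by its spermatid minus prepachytene difference in log2 units, filled where the limma adjusted p was under 0.05, and the red mark is the median of the list. Lists of prophase and replication lie left of 0, with medians down to -3.67 for crossover genes, and lists of the acrosome, flagellum and sperm surface lie right of it, up to 4.61 for the acrosome.

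Genes of meiotic entry fell. Of 19 measured, 12 fell and 2 rose, with a median of -3.01. *Stra8*, the retinoic acid target that starts meiosis, read 10.05 and 10.46 on the B6 and 9.83 and 10.49 on the PWD prepachytene arrays, and 2.17 to 2.35 on the spermatid arrays. Its pachytene arrays, at 2.13 to 2.19, were as low as the spermatids, and its difference was -7.98 ± 0.20 (adjusted p = 1.2e-06, at least 5.69). *Taf4b*, a TFIID subunit of germ cells, fell by 6.99, *Sohlh2*, a spermatogonial transcription factor, by 6.12 (at least 4.97), and *Ythdc2* and its partner *Meioc*, which act on RNA at meiotic entry, by 5.16 and 3.70. *Rec8*, the meiotic cohesin, and *Dmrtb1*, which coordinates the entry, were the members that rose, by 2.17 and 3.29.

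Genes of the synaptonemal complex and the chromosome axis fell in 12 of 15 cases, with a median of -2.21. *Sycp3*, of the lateral element, was at 15.99 and 16.06 in B6 and 16.41 and 16.32 in PWD prepachytene cells, at 13.48 to 14.84 in pachytene cells, and at 11.63, 11.51, 12.80 and 13.24 on the B6 and PWD spermatid arrays. It thus fell by 3.90 ± 0.24 (adjusted p = 1.7e-05) and remained far above the background level. *Tex12*, of the central element, fell by 7.40, *Hormad2*, of the axis, by 5.41 (at least 4.72) and *Sycp1*, the transverse filament, by 5.01. *Syce1*, another central element gene, rose by 0.99 and *Meikin*, of the meiosis I kinetochore, by 1.59.

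Of 19 measured among 24 listed genes of double-strand breaks and strand exchange, 15 fell and none rose (median -2.94). *Dmc1*, the meiotic recombinase, had 11.50 and 11.89 on the B6 and 10.43 and 10.97 on the PWD prepachytene arrays, and 3.42 to 3.80 on the spermatid arrays, so that the groups did not overlap (-7.62 ± 0.22, adjusted p = 1.4e-06, at least 6.68). *Atm*, the kinase that senses breaks, fell by 7.29 (at least 6.22), *Meiob* by 6.68, *Mei1* by 6.43 (at least 5.41) and *Prdm9*, the methyltransferase that places the breaks, by 5.09 (at least 3.77). *Spo11*, which cuts the DNA, fell by 2.43 and stayed at a mean of 9.50 in spermatids. *Hsf2bp*, *Psmc3ip*, *Mre11a* and *Nbn* did not pass, with differences of -0.41, -0.25, -0.11 and -1.34.

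Crossover and mismatch repair genes gave 9 falls and 1 rise of 10 measured among 16 listed, with a median of -3.67. *Ccnb1ip1* (HEI10), which limits crossovers to their sites, was at 11.62 to 12.00 in prepachytene cells, at 8.74 to 9.98 in pachytene cells and at 2.86 to 4.34 in spermatids (-8.36 ± 0.31, adjusted p = 2.5e-06, at least 7.32). *Pms2* fell by 6.44 (at least 4.30), *Msh5* by 5.70 (at least 3.33) and *Exo1* by 4.67. *Mus81*, a structure-specific endonuclease, was the member that rose, by 1.92, and its probeset can also read other transcripts.

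DNA replication genes followed the same course, with 34 falls and 4 rises among 43 and a median of -2.54. *Cdt1*, which licenses origins, was at 9.41 and 9.50 in B6 and 10.42 and 11.00 in PWD prepachytene cells and between 1.88 and 1.91 on all spermatid arrays (-8.19 ± 0.30, adjusted p = 2.4e-06, at least 5.56). The helicase subunits *Mcm3*, *Mcm2*, *Mcm6*, *Mcm4* and *Mcm5* fell by 7.25, 6.18, 5.95, 5.58 and 5.54 (at least 6.08 for *Mcm3* and 5.05 for *Mcm2*), and *Pcna*, the sliding clamp, by 2.03. *Gins4*, *Rfc2* and *Pole2* rose, by 2.02, 1.58 and 1.10, and *Fen1* was counted as a rise of 1.20 by a probeset with a family suffix, while its other probeset above the background level passed in the opposite direction, at -5.06. Maintenance and *de novo* methyltransferases fell as well, *Dnmt1* by 4.85, *Dnmt3b* by 4.72 (at least 2.99) and *Dnmt3a* by 4.12, in a list of 14 methylation genes with 6 falls and 5 rises.

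Genes of the meiotic divisions split, with 11 rises and 10 falls of 28 and a median of 0.05. *Ccnb3*, an X-linked cyclin of prophase, fell by 8.48 (at least 6.44), *Mad2l1*, of the spindle checkpoint, by 7.52 and *Ccna2* by 4.07. *Wee1*, the kinase that restrains CDK1, was at 5.58 to 6.27 on the prepachytene and 11.68 to 12.10 on the spermatid arrays, a rise of 6.00 ± 0.20 (adjusted p = 1.8e-06), whereas its other probeset above the background level passed as lower, at -2.61. *Ccna1*, the male meiotic cyclin, rose from 5.67 to 7.71 up to 11.87 to 12.05 (5.57 ± 0.38, adjusted p = 2.7e-05), and its pachytene arrays, at 11.81 to 12.56, already held that level. *Plk1*, the mitotic kinase, rose by 3.31.

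The piRNA pathway, which represses transposons through small RNAs, was split too, with 6 rises and 7 falls of 20 and a median of -0.02. *Tex19.1* fell by 6.62 (at least 5.70), *Mov10l1*, the helicase of piRNA biogenesis, by 5.54 and *Piwil2*, a PIWI protein, by 3.49. *Henmt1*, which methylates the ends of piRNAs, was at 2.24 to 4.33 in prepachytene cells and 8.12 to 9.12 in spermatids (5.25 ± 0.47, adjusted p = 9.8e-05, at least 4.11), *Ddx25*, an RNA helicase of haploid cells, rose by 4.11, and *Tdrd1* by 3.34 (at least 2.84). *Mael*, *Ddx4* and *Tdrd12* differed by -0.08, 0.05 and -0.10 and did not pass. These 3 genes were far above the background level in both populations. *Dicer1*, of small RNA biogenesis, was at 11.26 to 12.62 in prepachytene cells and 3.53 to 3.55 in spermatids, a fall of 8.40 (adjusted p = 1.8e-06, at least 7.42).

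The acrosome gave the largest median of the lists, 4.61, with 32 rises and 1 fall among 35 genes. *Spaca6*, needed for sperm and egg fusion, read 2.80 and 2.64 in B6 and 3.91 and 3.74 in PWD prepachytene cells, 5.57 to 7.01 in pachytene cells, and 10.49, 10.53, 10.04 and 10.36 in B6 and PWD spermatids (7.08 ± 0.31, adjusted p = 4.2e-06, at least 5.84). *Zp3r*, a zona pellucida receptor of the acrosomal matrix, rose from 5.98 to 7.71 up to 13.02 to 13.36 (6.55 ± 0.32, adjusted p = 6.5e-06), and *Spam1*, the sperm hyaluronidase, by 6.53. *Acr*, the protease acrosin, rose from 7.34 to 7.93 up to 12.32 to 13.06 (5.10 ± 0.19, adjusted p = 2.7e-06), and had reached 11.83 to 12.30 in pachytene cells. *Izumo1*, the fusion protein that binds the egg receptor, rose by 5.35. *Pick1*, a trafficking protein of acrosome formation, was the member that fell, by 0.39 in the deposited values, and its sign changed when the arrays were centred.

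All 29 measured axoneme genes passed as higher, with a median of 3.73, although *Dnah17*, at 0.18, stayed below the background level. *Rsph9*, of the radial spoke head, read 7.62 and 7.75 in B6 and 8.32 and 8.66 in PWD prepachytene cells and 13.40 to 14.05 on the spermatid arrays (5.62 ± 0.16, adjusted p = 1.3e-06). *Spag6*, of the central pair, rose by 5.44, the tektin *Tekt4* by 5.40 and *Armc4*, a dynein docking factor, by 5.28. For 16 of the 29 genes the pachytene mean lay above both compared populations, and *Rsph9* was at 13.35 to 14.31 there.

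The outer sheath of the tail and the mitochondrial capsule rose in 22 of 23 cases (median 2.78). *Odf1*, of the outer dense fibres, was at 11.94 to 12.18 in prepachytene cells, 11.46 to 12.77 in pachytene cells and 14.53 to 15.39 in spermatids (2.96 ± 0.18, adjusted p = 1.6e-05). *Akap4*, the main protein of the fibrous sheath and X-linked, was at 11.87, 11.96, 11.99 and 12.63 in prepachytene cells and 14.53 to 15.03 in spermatids (2.69 ± 0.21, adjusted p = 4.5e-05), with 10.72 to 11.81 in pachytene cells. Both genes were far above the background level on the arrays of every population, so that the net rise started from a high level on the prepachytene arrays. The part of other cells or of spermatid transcripts in that level was not tested. *Fsip1* rose by 4.46 and *Cabyr*, a calcium-binding protein of the sheath, by 4.40.

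Sperm ADAM proteins and their chaperones, which carry migration and adhesion of sperm, rose in 19 of 22 cases with a median of 4.00. *Adam26a* read 5.67, 4.84, 3.60 and 4.88 on the prepachytene arrays and 13.25 and 12.95 in B6 but 10.83 and 11.37 in PWD spermatids (7.35 ± 0.39, adjusted p = 8.5e-06). *Adam25*, *Adam24* and *Adam21* rose by 6.45, 6.35 and 5.77, though members of this family are close paralogs. *Adam3*, needed for passage into the oviduct, rose by 2.88 from a prepachytene mean of 12.35. *Tex101* fell by 8.69, from 15.27 to 15.30 down to 6.10 to 7.07, and *Tpst2* fell by 1.31 in the deposited values but not after either rescaling.

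Of 16 sperm ion channel genes 12 rose and 1 fell. *Catsper3*, of the sperm calcium channel, rose by 6.49, its partner *Catsper1* by 4.91, *Lrrc52*, a potassium channel subunit, by 6.19 (at least 3.91) and *Kcnu1*, its pore, by 4.96. *Pkdrej*, a polycystin of the sperm head, rose by 6.04 (at least 4.25). Among 17 testis-specific kinases and phosphatases 13 rose and 2 fell, with *Tssk4*, *Tssk1* and *Ppp3r2*, a calcineurin subunit, up by 5.77, 4.68 and 4.63 and *Mast2* down by 2.46. Of 22 genes of ubiquitin ligation and proteolysis in spermatids 15 rose and 3 fell, led by *Rnf148* at 5.64, *Rnf151* at 4.95 and *Spsb1* at 4.91, and *Klhl10*, a cullin adaptor, rose by 4.01.

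The packaging proteins of the sperm nucleus behaved otherwise. Of 16 genes of sperm chromatin compaction 9 rose and 2 fell, with a median of 0.80. *Prm1*, a protamine, was at 15.03, 15.10, 15.62 and 15.87 on the prepachytene and 15.81, 15.94, 15.34 and 15.89 on the spermatid arrays, so that the groups overlapped (0.34 ± 0.22, adjusted p = 0.203). This difference passed after either rescaling. *Prm2* was at 11.55, 11.73, 13.29 and 13.44 in prepachytene cells and 12.68, 12.74, 11.71 and 12.07 in spermatids (-0.20 ± 0.50, adjusted p = 0.722). *Tnp2*, a transition protein, was at 10.77, 10.67, 12.18 and 12.74 and then at 12.15, 12.13, 10.67 and 11.19 (-0.05 ± 0.59, adjusted p = 0.936). For each of the 3 genes the PWD prepachytene arrays were above the B6 ones, and the pachytene arrays were the lowest, at 12.78 to 13.88 for *Prm1*, 7.88 to 8.54 for *Prm2* and 6.06 to 6.68 for *Tnp2*.

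*Tnp1*, the other transition protein, rose, from 10.34, 10.34, 11.19 and 11.77 in prepachytene cells up to 13.67, 13.56, 12.54 and 12.91 in spermatids (2.26 ± 0.42, adjusted p = 0.00377). *Hils1*, a spermatid linker histone, rose by 2.95, *Prm3* by 3.20, *Hmgb4* by 3.02, *Chd5*, a remodeller of spermatid chromatin, by 3.94 and *Cdyl* by 4.17, although both other *Cdyl* probesets above the background level passed as lower, at -4.92 and -4.13. *Rnf8*, a ubiquitin ligase, fell by 2.42, and the other member that fell, *Itprid2*, at -5.09 (at least 2.90), is a cytoplasmic protein that binds inositol trisphosphate receptors and not chromatin. The summed spermatid markers include *Prm1*, *Prm2*, *Tnp1*, *Tnp2* and *Hils1*, so that the sum is not independent of these values. On the prepachytene arrays it was 17.15 and 17.45 in PWD and 16.45 and 16.48 in B6. The part of other spermatid transcripts in the result was not tested.

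**Figure D3:**
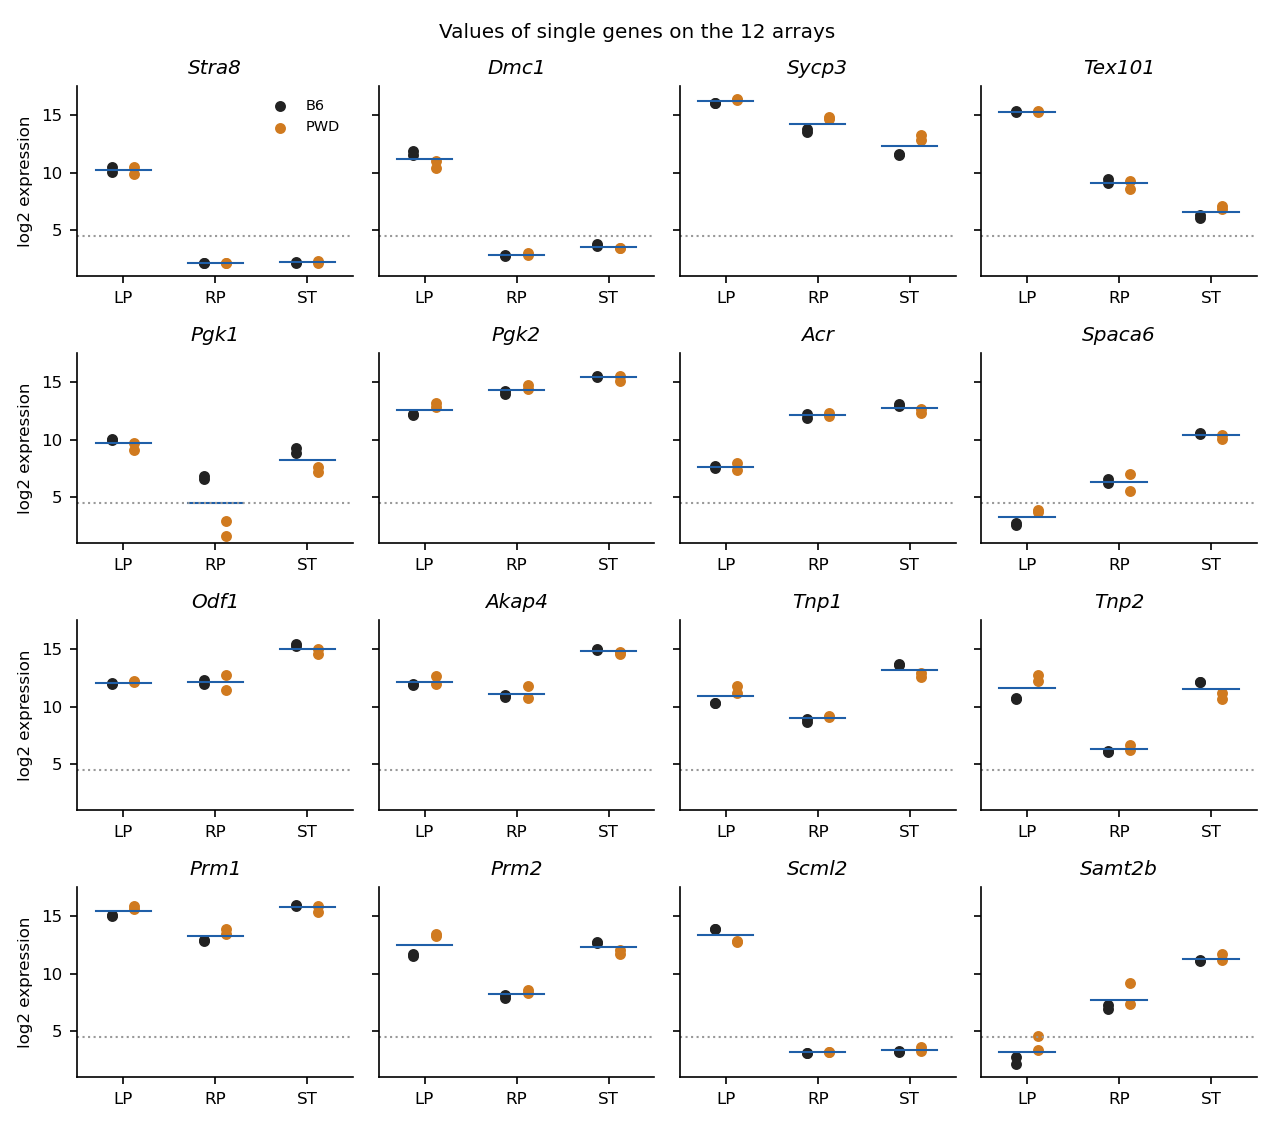
Levels of 16 genes on each array in prepachytene (LP), pachytene (RP) and spermatid (ST) samples, in log2 units, with B6 in black, PWD in orange, the group mean as a blue bar and the background level of 4.52 dotted. *Stra8* and *Dmc1* fell to the background level, *Spaca6* rose from it, and *Prm2* and *Tnp2* were lowest in pachytene samples and overlapped between prepachytene and spermatid samples.

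Transcription regulators gave 15 rises and 8 falls of 28 with a median of 0.64. *Crem*, the activator of postmeiotic genes, rose from 7.32 to 7.94 up to 11.85 to 12.14 (4.25 ± 0.17, adjusted p = 3.2e-06), whereas 2 of its other probesets gave -0.54 and 0.69, the first of them passing as lower. *Sox5* rose from 6.17 and 5.67 in B6 and 8.28 and 8.21 in PWD up to 13.10 to 13.67 (6.35 ± 0.50, adjusted p = 5.2e-05), and *Fhl5*, a coactivator of CREM, by 3.89. The RFX factors *Rfx1*, *Rfx2* and *Rfx4*, of a family that acts on ciliary genes, rose by 2.48, 1.79 and 2.28. The X-linked *Rhox13* and *Taf7l* fell by 7.11 and 4.68. *Ctcf*, the insulator protein, fell by 2.18.

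Translational regulators fell in 18 and rose in 7 of 28 cases (median -1.86). *Elavl2*, an RNA-binding protein, was at 11.18 to 12.47 in prepachytene cells and 3.11 to 3.18 in spermatids (-8.68 ± 0.28, adjusted p = 1.7e-06, at least 7.30). *Celf1* fell by 7.35, *Fmr1*, the fragile X protein gene, by 6.52 (a second probeset gave -0.58), *Cpeb1* by 5.54 (at least 4.49) and *Dazl*, which activates translation in early germ cells, by 5.09. *Papolb*, a testis poly(A) polymerase, rose by 5.18 and *Pabpc2*, a poly(A)-binding protein, by 4.36.

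Germ cells replace several housekeeping enzymes by isozymes encoded by separate genes. Of 26 such genes 21 rose and 4 fell (median 1.93), while of 17 somatic counterparts 3 rose and 12 fell (median -1.94). *Pgk2*, the autosomal phosphoglycerate kinase, was at 12.15, 12.22, 12.78 and 13.17 in prepachytene cells and 15.06 to 15.53 in spermatids (2.80 ± 0.23, adjusted p = 6.5e-05), with 13.94 to 14.72 in pachytene cells. The X-linked *Pgk1* was at 9.97, 10.06, 9.11 and 9.71, at 1.64 to 6.87 in pachytene cells, and at 8.80, 9.23, 7.19 and 7.60 in spermatids (-1.50 ± 0.27, adjusted p = 0.00341). The *Pgk1* groups overlapped, and its probeset without a family suffix gave -0.56 and did not pass. Other pairs parted in the same way. *Hspa2* rose by 1.52 and *Hspa8* fell by 5.16, *Cetn1* rose by 3.12 and *Cetn2* fell by 4.16, *Pdha2* rose by 2.08 and *Pdha1* fell by 2.30 (at least 0.60), and *Prps1l1* rose by 4.07 and *Prps1* fell by 2.90.

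Not all pairs did so. *Ldha*, the somatic lactate dehydrogenase, rose from 10.27 to 11.01 up to 13.62 to 14.20 (3.21 ± 0.15, adjusted p = 4.9e-06), while *Ldhc*, its testis isozyme, was high throughout, at 15.34 to 15.61 and 15.79 to 16.20 (0.57 ± 0.11, adjusted p = 0.0044). *Aldoa* rose by 2.84 with the retrogenes *Aldoart1* and *Aldoart2*, which rose by 4.11 and 4.53 and are close copies of it. *Slc25a31*, the germ cell adenine nucleotide carrier, fell by 2.24, as did *Slc25a4* by 3.75. *Cyct*, testis cytochrome c, differed by 0.09 (adjusted p = 0.784), while the somatic *Cycs* fell by 4.26. The germ cell list also held *Glud1*, a mitochondrial glutamate dehydrogenase expressed widely, which fell by 8.04 (at least 6.25).

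A few abundant genes differed little. *Ppp1cc*, the phosphatase whose testis isoform serves sperm, differed by 0.22 (adjusted p = 0.0866), and this passed after either rescaling, while its other probeset above the background level passed as lower, at -3.78. *Ran*, a GTPase of nuclear transport, differed by -0.25, *Pebp1* by 0.35 and *Tcp1*, a chaperonin subunit, by 0.39. These differences are smaller in size than the shift of the median by centring, which raised all of them.

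Antigen presentation gave 6 falls and 5 rises of 14. Besides *H2-D1*, *B2m*, the common light chain of class I molecules, fell by 2.29 and *Calr*, a chaperone of their assembly, by 2.37, while *Tapbp*, which loads peptides, rose by 2.17. Of 19 multicopy sex-linked genes listed 3 were measured, and they were split. *Magea5*, on Chr X, fell from 10.55 to 11.37 down to 2.46 to 2.52 (-8.40 ± 0.18, adjusted p = 9.8e-07, at least 6.37), and *Cypt1* and *Cypt3*, of the perinuclear theca, rose by 4.08 and 3.94.

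X-linked genes had a net fall. Of 300 above the background level, 82 (27.3%) rose and 190 (63.3%) fell with a median of -2.85, against 37.6% and 44.8% of 9770 autosomal genes with a median of -0.30. The share that fell was between 40.6% on Chr 15 and 49.4% on Chr 2 among the autosomes. The median level of the X-linked genes went from 8.25 in prepachytene cells through 3.82 in pachytene cells to 6.12 in spermatids, whereas that of the autosomal genes was 8.88, 8.72 and 8.51. For 233 of the 300 genes (77.7%) the pachytene mean was below both compared populations, against 20.8% of the autosomal genes. The median fall was -2.88 in B6 and -2.67 in PWD. Over all 617 measured X-linked genes, of which many were never above the background level, 214 rose and 246 fell with a median of -0.06.

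Some X-linked genes rose far above their prepachytene level. By at least 2 rose 66 of 300, a share similar to that of autosomal genes, at 2369 of 9770. *Actrt1*, an actin-related gene of the sperm head, was at 4.43, 5.08, 5.49 and 5.71 in prepachytene cells, at 6.51 to 8.06 in pachytene cells and at 10.83 to 11.70 in spermatids (6.18 ± 0.33, adjusted p = 8.8e-06). *4933416I08Rik*, *Fam47c* and *4933428M09Rik* rose by 6.41, 6.36 and 5.72 (at least 4.42, 5.17 and 3.75). At least 2 lower were 171 of the 300, against 2823 of 9770 autosomal genes. The 5 Y-linked genes above the background level gave 1 rise and 4 falls.

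**Figure D4:**
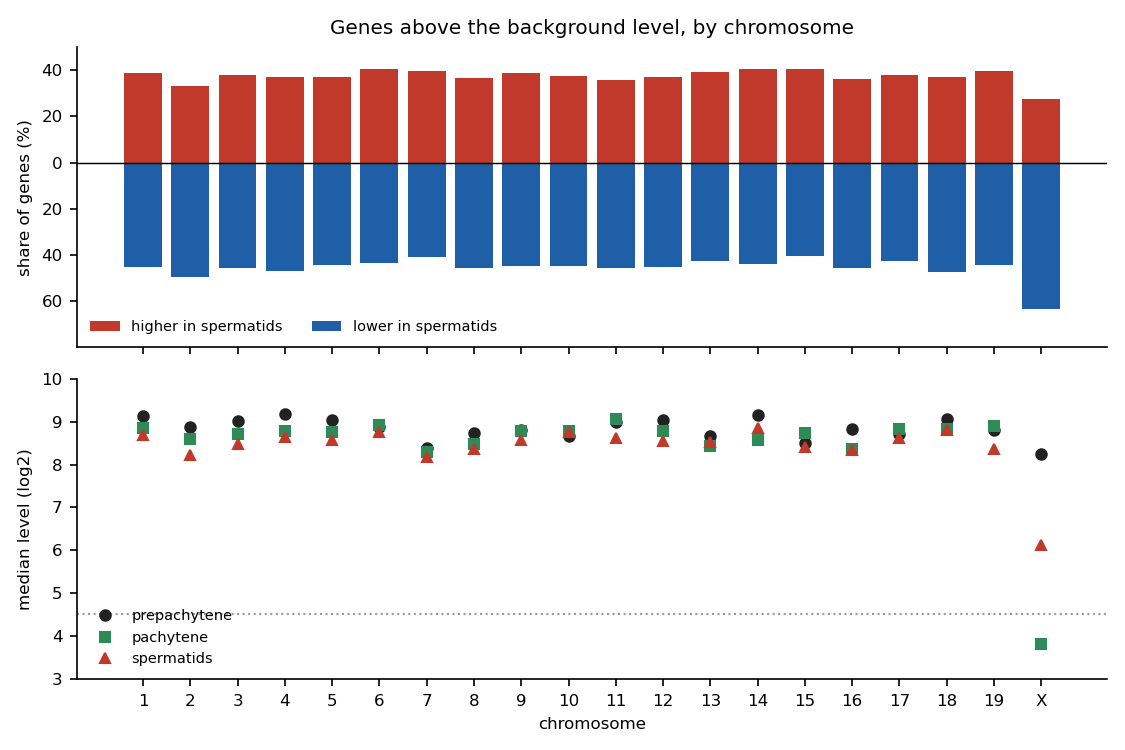
The upper panel gives, for each chromosome, the percentage of genes above the background level that rose or fell in spermatids, and the lower panel the median log2 level of these genes in prepachytene, pachytene and spermatid samples. On Chr X 63.3% fell, and the median went from 8.25 through 3.82 to 6.12, while the autosomes each stayed between 8.18 and 9.17.

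Over all chromosomes together, Chr X included, the pachytene level lay between the compared populations for most genes that changed by at least 2. Of the 3003 genes that fell by at least 2, 2042 had a pachytene mean between the compared populations, 835 were below both and 126 were above both. In pachytene cells 73.3% had passed the midpoint of the fall. Of the 2459 genes that rose by at least 2, 1513 were between, 697 were above both populations and 249 were below both, and 56.7% had passed the midpoint of the rise. Both shares past the midpoint include genes whose pachytene mean lay beyond the spermatid mean. *Stra8* and *Cdt1* had completed their fall by the pachytene stage, while *Odf1* was still near its prepachytene level there.

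Promoters of genes that rose held fewer CG dinucleotides than those of genes that fell. RefSeq promoters of 300 bases (build GRCm38.p6, 250 before to 50 after the start) were matched for 8307 of the genes above the background level, and the first listed promoter of a gene was used. The median number of CGs was 12 in 1964 genes that rose by at least 2, 23 in 2490 that fell by at least 2 and 21 over all. Among 767 genes with 0 to 4 CGs 65.2% rose by at least 2 and 9.39% fell by as much, and their median difference was 3.23. With 5 to 14 CGs (1587 genes) the shares were 36.4% and 22.7%, with 15 to 24 (2769 genes) 16.0% and 32.9%, and with 25 or more (3184 genes) 13.9% and 36.0%. The sequences show 120 bases before the start, with CG in capitals, of *Dmc1*, *Stra8*, *Sycp3* and *Pgk1*, which fell, and of *Pgk2*, *Tnp1* and *Akap4*, which rose.
*Dmc1*, chr15:79605110-79605229, minus strand: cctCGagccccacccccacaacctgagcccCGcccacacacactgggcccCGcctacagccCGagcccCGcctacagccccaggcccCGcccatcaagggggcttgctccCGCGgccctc
*Stra8*, chr6:34920828-34920947, plus strand: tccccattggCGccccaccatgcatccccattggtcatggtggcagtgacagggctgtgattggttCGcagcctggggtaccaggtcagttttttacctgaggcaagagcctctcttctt
*Sycp3*, chr10:88459467-88459586, plus strand: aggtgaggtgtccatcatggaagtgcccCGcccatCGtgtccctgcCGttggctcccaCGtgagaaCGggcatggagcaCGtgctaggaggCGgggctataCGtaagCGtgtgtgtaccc
*Pgk1*, chrX:106186980-106187099, plus strand: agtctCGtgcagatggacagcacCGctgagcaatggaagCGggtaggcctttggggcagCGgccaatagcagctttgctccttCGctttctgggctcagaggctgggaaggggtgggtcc
*Pgk2*, chr17:40208610-40208729, minus strand: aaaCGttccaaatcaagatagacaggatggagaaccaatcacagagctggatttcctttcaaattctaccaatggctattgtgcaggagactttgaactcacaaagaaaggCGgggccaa
*Tnp1*, chr1:73015900-73016019, minus strand: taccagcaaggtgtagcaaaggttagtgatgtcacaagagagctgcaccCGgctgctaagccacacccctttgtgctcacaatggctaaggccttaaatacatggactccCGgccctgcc
*Akap4*, chrX:7067395-7067514, plus strand: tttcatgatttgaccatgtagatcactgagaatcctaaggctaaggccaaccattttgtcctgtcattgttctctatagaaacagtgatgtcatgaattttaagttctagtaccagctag
The whole promoters of the 4 genes that fell held 18, 10, 15 and 24 CGs, and those of the 3 that rose held 4, 6 and 0. The relation was not general, since 444 genes with 25 CGs or more rose by at least 2.

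Short motifs were counted on both strands in the same 8307 promoters. The core of A-MYB sites, AACTG, was in 47.0% of the promoters of genes that rose by at least 2, in 35.1% of those that fell by at least 2 and in 38.5% of all. The core of the X-box of RFX factors, GTTGCC, was in 18.8%, 11.7% and 14.2%, and the SOX motif, ACAAT, in 30.7%, 18.6% and 21.8%. GGGCGG, the GC box, was in 43.9%, 71.5% and 62.8%, TCCCGC, the core bound by E2F6, in 23.8%, 40.9% and 35.2%, and the E2F site TTTCCCGC, which contains the former, in 1.12%, 3.33% and 2.24%. The full cAMP response element TGACGTCA, which CREM binds, was in 2.75%, 3.98% and 3.66%, and its shorter form TGACG in 23.6%, 36.5% and 33.4%. CCAAT was in 39.7%, 40.0% and 39.7%, CACGTG in 8.25%, 12.4% and 10.8%, and TATAAA in 8.71%, 5.98% and 6.73%. All motifs listed here as rarer in genes that rose than in genes that fell, apart from CCAAT, contain a CG, and the shares were not adjusted for base composition. The full element, in capitals, stood before genes that went either way, *Izumo1* and *Ldha*, which rose, and *Cycs*, which fell.
*Izumo1*, chr7:45621689-45621748, plus strand: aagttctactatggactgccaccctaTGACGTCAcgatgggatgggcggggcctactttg
*Ldha*, chr7:46845766-46845803, plus strand: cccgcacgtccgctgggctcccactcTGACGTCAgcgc
*Cycs*, chr6:50566705-50566764, minus strand: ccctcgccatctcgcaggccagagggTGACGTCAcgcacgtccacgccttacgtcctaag
A match describes these letters in this window and was not tested as a binding site.

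The change differed between the strains for a part of the genes. In B6 38.5% of the genes above the background level rose and 44.1% fell (82.6% together), and in PWD 35.5% rose and 45.3% fell (80.7%). Over all probesets 59.6% passed in B6 (35.9% with a difference of at least 1) and 46.4% in PWD. The difference tested was the signed change in PWD minus that in B6, so that a smaller fall in PWD counts as larger. The test called 2180 of 10119 genes (21.5%), 783 (7.74%) with a larger value in PWD and 1397 (13.8%) with a smaller one. This split depended on the scaling, with 1238 larger and 1333 smaller after a further quantile normalization and 1350 and 1507 after centring. Over all genes it called 16.4%, of which 5.71% were larger and 10.7% smaller in PWD, and over all probesets 12.5%. Leaving out 1 array of a group moved these counts by over 1.5 times for each of the 4 B6 arrays and, for the smaller values, for PWD spermatid array 1. The counts of genes above the background level were then 343 to 911 larger and 520 to 1836 smaller. Among genes of the acrosome 15 of 35 had a smaller change in PWD and none a larger one, among tail sheath genes 10 of 23, among spermatid markers 11 of 24, among axoneme genes 9 of 29, in each of these lists with none larger, and among genes of sperm chromatin compaction 7 of 16 with 1 larger. Other spermatid lists had fewer, with 5 of 17 kinases and phosphatases, 3 of 16 ion channels and 2 of 22 ADAM proteins and chaperones smaller, and of 26 germ cell isozymes 3 were larger and none smaller. After quantile normalization the acrosome, tail sheath and axoneme lists gave 15, 9 and 9 smaller and none larger, and after centring 19, 14 and 11. After centring the germ cell isozymes gave 4 larger and 4 smaller. The PWD prepachytene mean was above the B6 one for 34 of 35 acrosome, 21 of 23 tail sheath and 26 of 29 axoneme genes. Acrosome genes summed to 14.36 and 14.37 on the B6 and 15.07 and 15.27 on the PWD prepachytene arrays. On the spermatid arrays they summed to 18.12 and 18.11 in B6 and 17.74 and 18.19 in PWD. A smaller change in these lists thus does not by itself mean a lower spermatid level in PWD. *Tnp1* rose by 3.28 in B6 and by 1.24 in PWD, with a difference between the strains of -2.03 (adjusted p = 0.0124). *Prm2* differed by 1.07 in B6 and -1.48 in PWD (adjusted p of the difference = 0.0019), and *Tnp2* by 1.42 and -1.53 (0.00523). For these genes the PWD prepachytene arrays were higher and the PWD spermatid arrays lower than those of B6. The summed spermatid markers, which include these genes, moved with them.

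Single genes differed far more. *Col5a1*, a fibrillar collagen, was at 5.34 and 4.09 in B6 and 10.45 and 10.60 in PWD prepachytene cells, and at 8.52 and 8.78 in B6 and 5.68 and 5.45 in PWD spermatids. B6 thus gave 3.93 and PWD -4.96 (7.1e-04 for the strain term, adjusted p). *Card10*, a signalling scaffold, went in the same way, with 4.01 and -4.35 (adjusted p = 4.4e-04). *4930453L07Rik* was at 10.58 on both B6 spermatid arrays and between 2.36 and 2.66 on the 6 other arrays, so that it was above the background level in B6 spermatids alone (adjusted p = 1.3e-04). *Ccndbp1* was at 10.10 to 10.34 on all prepachytene arrays, at 9.93 and 10.21 in PWD spermatids and at 2.42 and 2.38 in B6 spermatids (adjusted p = 1.1e-04). The probes follow a reference close to B6, and whether sequence differences of PWD under the probes contribute was not tested.

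**Figure D5:**
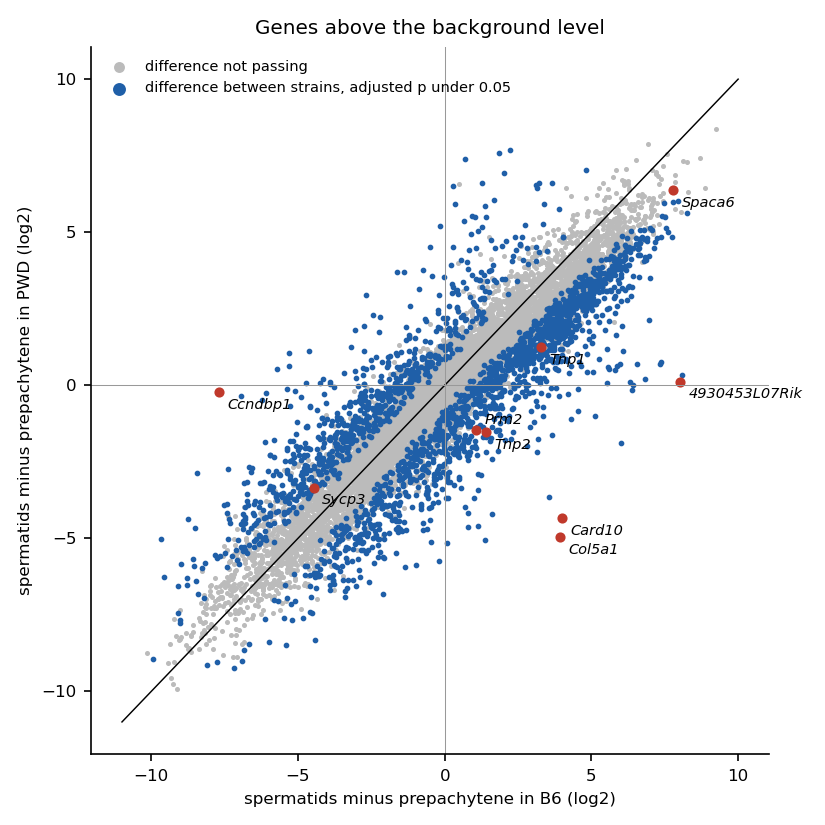
Each point is a gene above the background level, placed by its spermatid minus prepachytene difference in B6 and in PWD in log2 units, blue where the difference between the strains had a limma adjusted p under 0.05 and red where the gene is labelled, with the line of equal change. Genes of spermatids such as *Tnp1*, *Tnp2*, *Prm2* and *Spaca6* lie below the line, and *Card10* and *Col5a1* changed in opposite directions in the strains. For *Spaca6* all prepachytene values were below the background level.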

How the data were processed

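Arrays of sorted cells were hybridised, 2 for each of 6 groups, and the 8 of spermatids and prepachytene spermatocytes were compared. The authors deposited log2 values per probeset. By the submitters' processing notes these came from GCRMA (version not given in the sources used here), whereas the study's methods name RMA and, at one step, another array type. GCRMA subtracts background by probe sequence and equalises probe intensities across arrays, so that populations of unlike RNA content can be shifted as a whole, and the probesets above background still had array medians of 7.74 to 7.90 for spermatids and 8.24 to 8.60 for prepachytene cells. The probes follow a reference close to B6, and mismatches can lower PWD values. Of 45101 probesets, 64 controls were left out.

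The deposited log2 values were fitted in R 4.3.3 with limma 3.58.1 (lmFit, then eBayes with a trend, Benjamini-Hochberg over 45037 probesets, threshold 0.05), with strain as a covariate. The model of 4 group means gave the changes within strains and their difference. Other steps used Python 3.11.15 with pandas 2.3.3 and numpy 2.4.6, and matplotlib 3.10.9 drew the figures. Gene names came from the platform's annotation, updated by a RefSeq table that lacked 204 of 34945 probesets, while 932 probesets named several genes and 9160 none. Probesets with a family suffix and close paralogs are uncertain. Deviations of samples that share a replicate number correlated only between -0.03 and 0.08, so the numbers were not taken as pairs.

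Named genes were the 15 largest changes in each direction that passed with no overlap between arrays and a higher side above background, in each list the 4 largest changes and up to 4 against its direction, the 6 extremes of Chr X in each direction, the 8 largest differences between strains, abundant genes alike in both populations, genes switched over the background level, and 12 fixed genes. Other list members named were chosen after their values were seen. The lists, members and rules were chosen with earlier results of these data known. Alternatives were further normalization, centring, filters, probeset choices, replicate blocks, thresholds, array subsets and, added after seeing the data, array weights. The fit was tested on simulated data. The number of arrays limits the precision. Pachytene arrays serve as a description only.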

Additional observations from a re-analysis of the deposited data

Results flagged for a closer look

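Among 51 genes, 102 groups of 4 arrays were looked at for an array far from the other 3, and chance gives such an array in about 1 of 20 groups. *Akap4* stood apart on PWD prepachytene array 2, at 12.63, and *Ccdc105* on PWD spermatid array 1, at 10.47.

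The change from prepachytene cells to spermatids differed between the strains, by the limma test of that difference, for several named genes, and the value given is the change in PWD minus the change in B6 on the log2 scale. Among spermatid genes it was -1.41 for *Spaca6*, -2.54 for *Prm2*, -2.03 for *Tnp1* and -2.95 for *Tnp2*. The prepachytene arrays of *Spaca6*, at 2.64 to 3.91, were all below the background level. Its spermatid means were 10.51 in B6 and 10.2 in PWD, so that the size of its strain difference is not measured. Among genes that fell in both strains it was 1.23 for *Scml2*, 1.01 for *Ssr4*, 1.12 for *Sycp3* and -1.30 for *Dicer1*. For *Scml2*, *Ssr4* and *Dicer1* all spermatid arrays were below the background level. Their values thus rest on the prepachytene levels of the strains, and the size of the fall cannot be compared.

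The 8 genes with the largest differences were *Col5a1* at -8.89, *Card10* at -8.36, *4930453L07Rik* at -7.90, *Wwtr1* at -7.90, *4921534H16Rik* at -7.74, *Ccndbp1* at 7.48, *Rabgap1l* at 7.23 and *Runx3* at -7.21.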

How the results depend on the processing

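The arrays limit these results by their number and by signal over background, and the cause of each move was not tested. With a further quantile normalization the median difference of genes above the background level turned from -0.32 to 0.17, and with centring to 0.31. Of single genes, *Cdyl* turned to -1.63, *Fen1* to -1.93 and *Cox8a* to -0.17 as means of all their probesets, *Cox8a* to -0.025 after quantile normalization, and *Crem* to -0.54 and *Ddx5* to 2.33 with probesets without a family suffix. Of 4732 values of 217 named genes under alternatives, 4525 kept direction and side of the threshold, 188 lost the call and 13 gained it. Probesets called between the populations went from 30997 to 14875 when the test was limited to probesets above the background level, to 20468 at an adjusted p under 0.01 and to 15922 with a difference of at least 1. In B6 26845 went to 14891, 15868 and 16188 in the same order, and to 17611 to 28455 when 1 array was left out. In PWD 20901 went to 39120 after centring. Probesets whose change differed between strains went from 5615 to 2031 at an adjusted p under 0.01, and to 3272 to 7490 when 1 array was left out. Genes with a larger change in PWD went from 783 to 1238 after quantile normalization and 1350 after centring (smaller from 1397 to 1333 and 1507), and to 1194 over probesets above the background level, 258 at an adjusted p under 0.01 and 343 to 911 without 1 array. Genes with a smaller change went from 1397 to 2196 over probesets above the background level, 365 at an adjusted p under 0.01 and 520 to 1836 without 1 array. X-linked genes that rose went from 82 to 214 over all genes, and the X-linked minus the autosomal median from -2.56 to -0.16 over all genes, -1.60 with the mean of probesets and -1.82 without suffixed probesets. With the replicate number as a block, 28650 probesets were called between the populations, and 27366 with a block within each strain, where strain differences fell to 3090 probesets, 386 genes larger and 802 smaller in PWD. Samples with the same number did not deviate together, and the labels do not say what the numbers mark.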
